A study of Caenorhabditis elegans with 2 samples.

Results

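The regions described here are the autosomal promoter peaks of an MDL-1 ChIP-seq experiment whose summits lack the canonical E-box CACGTG. They number 309 of the 1076 peaks in the authors' optimal list and 309 of its 392 autosomal promoter peaks. A peak belongs to them when it lies on chromosomes I to V, when its summit falls 1000 bp before to 200 bp after the start of a protein-coding transcript (its promoter window), and when CACGTG is absent within 50 bp of that summit. Within the optimal list the rule uses position and sequence and no measured strength. The summit is the highest point of the peak as the authors' caller marked it, and the optimal list holds peaks that passed a threshold on rank agreement between replicates.

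Chromatin came from whole Caenorhabditis elegans at the L2 larval stage, in 2 biological replicates of 1 group, with no second genotype, treatment or time. The animals were strain OP355, of mixed sex, with the allele unc-119(tm4063) on chromosome III and the integrated transgene wgIs355, an insertion that targets mdl-1. The antibody, strain and experiment labels name MDL-1, whereas a note on both samples names KLU-1 as the protein that carries the C-terminal GFP-FLAG tag. Which protein was precipitated cannot be settled from the labels. The animals' own MDL-1 was not stated to be removed, and whole larvae mix all tissues. Neither gene carried a peak of this kind: klu-1, on chromosome I, had no such summit in its promoter window, and mdl-1 lies on the X chromosome.

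MDL-1 is a Mad-type bHLH leucine-zipper factor. Proteins of this family pair with a Max-like partner, and the pair contacts the E-box CACGTG through its basic regions; Mad proteins are known mainly as repressors that oppose Myc-type activators in the control of growth. KLU-1 is a zinc-finger protein. In worms many pre-mRNAs are trans-spliced to a leader RNA, so that an annotated gene start can lie downstream of the true start of transcription.

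The sequences below span 50 bp to each side of the summit, read from the RefSeq reference genome in build ce11 (WBcel235) and written 5′ to 3′ on the strand of the gene with the nearest start. They show strong peaks from chromosomes II, III and IV in each of 4 groups, defined by GAGAGA and AGACGCAG, which were among the words most enriched over the peaks' own flanks. Capitals mark GAGAGA, AGACGCAG and their reverse complements TCTCTC and CTGCGTCT. The hlh-11 peak (chrIII:9619163-9619263, plus strand), the C18F10.7 peak (chrIII:6278611-6278711, minus strand) and the C09E9.1 peak (chrIV:1274736-1274836, plus strand) hold both words.
hlh-11: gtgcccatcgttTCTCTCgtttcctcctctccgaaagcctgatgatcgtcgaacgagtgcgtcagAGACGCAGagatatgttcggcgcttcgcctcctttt
C18F10.7: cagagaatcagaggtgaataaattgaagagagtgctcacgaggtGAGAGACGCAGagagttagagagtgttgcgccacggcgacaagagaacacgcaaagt
C09E9.1: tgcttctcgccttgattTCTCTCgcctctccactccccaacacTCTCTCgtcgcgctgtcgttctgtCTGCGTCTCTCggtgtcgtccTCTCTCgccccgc
In C18F10.7 and C09E9.1 the words overlap, so that a GA run passes straight into the 8-letter word.

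The ubq-1 peak (chrIII:5940579-5940679, plus strand) and the lin-23 peak (chrII:6370304-6370404, plus strand) hold AGACGCAG without GAGAGA, and the cbp-1 peak (chrIII:9765612-9765712, plus strand) and the rps-1 peak (chrIII:4475590-4475690, plus strand) hold GAGAGA without AGACGCAG.
ubq-1: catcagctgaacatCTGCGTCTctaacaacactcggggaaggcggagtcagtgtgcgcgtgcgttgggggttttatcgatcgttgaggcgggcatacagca
lin-23: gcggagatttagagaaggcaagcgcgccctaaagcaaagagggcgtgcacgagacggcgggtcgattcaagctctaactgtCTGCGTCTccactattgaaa
cbp-1: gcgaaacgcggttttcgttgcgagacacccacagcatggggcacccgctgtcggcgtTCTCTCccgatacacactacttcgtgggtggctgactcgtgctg
rps-1: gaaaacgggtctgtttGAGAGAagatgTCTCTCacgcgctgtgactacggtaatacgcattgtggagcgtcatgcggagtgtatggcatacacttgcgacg
In ubq-1 and lin-23 the 8-letter word reads CTGCGTCT along the gene.

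The tag-340 peak (chrIII:4899834-4899934, plus strand) and the iff-2 peak (chrII:8561385-8561485, minus strand) hold neither word.
tag-340: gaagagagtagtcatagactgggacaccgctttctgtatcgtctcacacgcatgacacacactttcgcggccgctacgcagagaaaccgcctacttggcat
iff-2: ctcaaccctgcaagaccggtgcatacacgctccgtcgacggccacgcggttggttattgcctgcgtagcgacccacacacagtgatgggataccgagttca
Of the 9 sequences, those of ubq-1, rps-1 and iff-2 also hold CACGCG, in either orientation, and those of C18F10.7, lin-23 and cbp-1 hold CACGAG, each 1 letter from CACGTG.

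The word GAGAGA lay within 50 bp of 116 of the 309 summits (37.5%, 95% interval 32.1 to 43.2) and AGACGCAG at 66 (21.4%, 95% interval 16.9 to 26.4). Equally wide windows 300 bp to the left, in genome orientation, held GAGAGA at 17 peaks (5.50%) and AGACGCAG at 0, which allows a share of up to 0.971%. To the right, 26 peaks (8.41%) held GAGAGA and 1 held AGACGCAG. All words were sought on both strands. In windows of this length centred 254 bp upstream of the starts of all 17242 autosomal protein-coding genes, the peaks' own median distance, GAGAGA occurred in 6.11% and AGACGCAG in 1.01%. Each word was therefore far more frequent at the summits than 300 bp away, with adjusted p = 8.8e-20 for GAGAGA and 3.9e-19 for AGACGCAG (exact McNemar test, two-sided, of summit and left window, Benjamini-Hochberg adjustment over a list of 29 words). Both words were known from earlier results of these data. The interval on each share covers counting error only, and the words' role in binding was not tested.

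Each replicate's own strongest regions gave nearly the same shares. Among peaks of this kind in the 1076 strongest regions of replicate 1, 113 of 301 held GAGAGA (37.5%), and in replicate 2 the count was 115 of 311 (37.0%). AGACGCAG stood at 66 of 301 (21.9%) in replicate 1 and at 56 of 311 (18%) in replicate 2. The replicates thus differed by less than the width of either interval.

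Both words were packed close to the summit. Of 120 AGACGCAG sites within 500 bp, 73 had their centre within 50 bp of the summit and 43 within 25 bp, while 13 lay 200 to 500 bp away. GAGAGA was spread more widely, with 264 of 903 sites within 50 bp and 201 from 200 to 500 bp. The longest uninterrupted GA run in a peak with GAGAGA had a median of 7 bp, and the longest of all reached 63 bp, so most were short runs rather than long repeats. AGACGCAG sat in a longer shared context: the base before it was G in 65 of 71 sites (91.5%), and the base after it was A in 54 (76.1%).

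**Figure D1:**
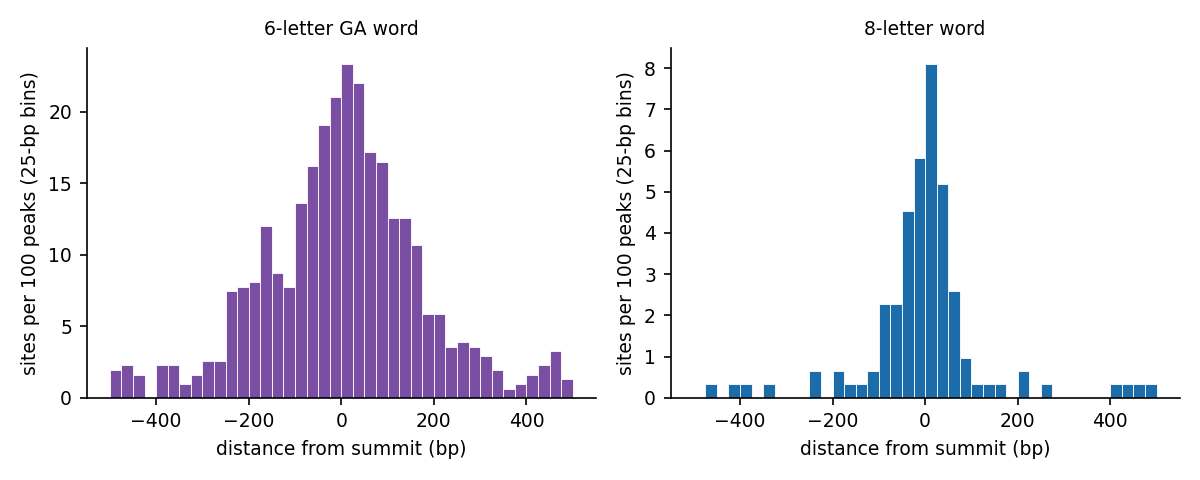
Number of word sites per 100 peaks (y axis) in 25-bp bins of distance from the summit (x axis, bp, negative is to the left in genome orientation) for the 309 peaks; the left panel shows the 6-letter GA word and the right panel AGACGCAG. The sites pile up at the summit in both panels, with 73 of 120 sites of the 8-letter word centred within 50 bp.

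AGACGCAG was oriented and GAGAGA was not shown to be. Among peaks with the word on 1 strand only, AGACGCAG lay on the strand of the nearest gene in 21 of 66 (31.8%). Its reverse complement CTGCGTCT thus read along the gene in 45 of 66 (68.2%). GAGAGA lay on the strand of the nearest gene in 46 of 107 (43.0%), so both shares written in this sense were below an even split. The exact two-sided binomial test against an even split gave p = 0.0043 for the 8-letter word and 0.18 for GAGAGA, or 0.0085 and 0.18 after adjustment over these 2 words. The test of the 8-letter word was added after the data had been examined. Without peaks that face starts on both strands, CTGCGTCT read along the gene in 41 of 57 (71.9%, exact binomial p = 0.0013). For CTGCGTCT, replicate 1's own list gave 45 of 66 (68.2%) and replicate 2's gave 39 of 56 (69.6%). In replicate 1's own list alone the GAGAGA share was 38.1% with exact p = 0.019.

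Sorted by word, 35 peaks held both, 81 GAGAGA only, 31 AGACGCAG only and 162 neither. The deposited signal, whose scale is not stated, had a median of 80.1 in peaks with both words, 73.9 with GAGAGA only, 85.2 with AGACGCAG only and 64.3 with neither. The ranges overlapped almost completely, from 49.9 to 194 with both words and from 48.4 to 216 with neither. AGACGCAG occurred in 35 of 116 peaks with GAGAGA (30.2%, 95% interval 22 to 39.4) and in 31 of 193 without it (16.1%, 95% interval 11.2 to 22). From the strongest 77 peaks to the weakest 77, the share with GAGAGA went from 44.2% (95% interval 32.8 to 55.9) to 27.3% (17.7 to 38.6), and the share with AGACGCAG from 31.2% (21.1 to 42.7) to 15.6% (8.32 to 25.6). These shares are a description of the list and were not tested.

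Some hexamers 1 letter away from CACGTG were frequent at these summits. Of the 9 such hexamers, reverse complements merged, 4 were higher at summits than in the left flank in a scan of all hexamers described further on, and 5 did not pass. CACGCG lay at 54 summits (17.5%, 95% interval 13.4 to 22.2) and at 2 left flanks (0.647%), and CACGAG at 57 (18.4%, 95% interval 14.3 to 23.2) and 9 (2.91%). The share in the windows of all autosomal genes was 1.62% for CACGCG and 2.27% for CACGAG. The adjusted p over the word list was 4.4e-14 for CACGCG and 1.4e-09 for CACGAG (exact McNemar test). CACGGG, the remaining change of the same letter, was rarer, at 15 summits (4.85%) against 1 flank (adjusted p = 0.0015, exact McNemar test). CACATG was the 4th. Those that did not pass included AACGTG, at 17 summits and 12 flanks, CACGTC, at 9 and 2, and CACGTA, at 7 and 5. Together, 106 peaks (34.3%) held CACGCG or CACGAG, and 38 of these (35.8%) also held GAGAGA, against 78 of the other 203 (38.4%).

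The palindromic and near-palindromic E-box forms CANNTG behaved otherwise. Of the 9 forms other than CACGTG, 0 differed between summits and left flanks after adjustment over the 9 (exact McNemar test), and 2 had an unadjusted p below 0.05. CACATG, at 29 summits (9.39%) and 12 flanks (3.88%), had exact adjusted p = 0.085 over the 9 forms and 0.023 over the word list, so its call rests on the family of tests. CAATTG, at 5 summits (1.62%) and 14 flanks (4.53%), had exact adjusted p = 0.16 over the 9 forms. CAAGTG was met at 26 summits (8.41%) and 13 flanks (4.21%), with exact adjusted p = 0.16. No other form was met at more than 16 summits. By count, 218 peaks (70.6%) held at least 1 of 5 words, namely both leading words, the E-box-like CACGCG and CACGAG, and the CACATG form, and 91 held none. CACGGG was not counted in this set.

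Of the other words listed for known regulatory factors, GGGCGG rose and several fell. This GC-box word of zinc-finger factors rose to 25 summits (8.09%) from 6 flanks (1.94%), with exact adjusted p = 0.0023. GTGGGCG, the word of EGR-type zinc fingers, was met at 3 summits and 2 flanks. TGATAA, bound by GATA factors, was lower at summits, in 12 (3.88%) against 40 flanks (12.9%, exact adjusted p = 2.6e-04). TATAAA, a core promoter word, was at 5 summits (1.62%) and 27 flanks (8.74%, exact adjusted p = 4.1e-04). TTTCAG, the end of worm introns, was at 14 summits (4.53%) and 65 flanks (21.0%, exact adjusted p = 4.4e-09). Each p is from the exact McNemar test adjusted over the 29 words, and CTGCGTC, another of them, lies inside the reverse complement of AGACGCAG and adds nothing separate to it.

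An unselected scan gave the same leading words amid a strong shift in base composition. Of 2079 hexamers, with CACGTG left out and reverse complements merged, 219 (10.5%) were higher at summits than in the left flank and 189 (9.09%) were lower (exact McNemar test, Benjamini-Hochberg adjusted p below 0.05). CGTCTC led, at 104 summits (33.7%) against 7 flanks (2.27%), followed by GACGCA at 90 (29.1%) against 5 (1.62%) and GAGAGA. The next 5 words, among them ACGCAG at 26.5% of summits and AGAGAG at 33.0%, overlap GAGAGA or AGACGCAG with its flanking bases. GCACGC, at 49 summits (15.9%) and 0 flanks, and CACGCG filled the last of the 10 leading places. The strongest losses were A and T words such as AAAATT, at 26 summits (8.41%) and 39.8% of flanks, and AAAAAT, at 51 (16.5%) against 146 (47.2%). GC content within 50 bp of the summit had a median of 51.5%, against 35.6% in each flank. Of 36 hexamers made only of G and C, 17 were higher and 0 lower, and of 36 made only of A and T, 0 were higher and 34 lower. GAGAGA, with 3 G letters and 3 A letters, belongs to a class of 640 words in which 48 were higher and 6 lower. How far base composition accounts for single words was not tested.

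Comparison with the other peaks of the list showed few differences that were firm. A total of 17 differences in share were tested against 3 other classes by two-sided Fisher's exact test, adjusted together, and 3 passed. GAGAGA was more frequent than in the 83 autosomal promoter peaks with CACGTG, at 37.5% against 20.5% (95% interval 12.4 to 30.8), a difference of 17.1 percentage points with exact adjusted p = 0.022. That call ended in 5 of the alternatives tried, including replicate 1's own list, where the difference was 14.9 points with exact adjusted p = 0.07. AGACGCAG was more frequent than in the 121 X-linked promoter peaks without CACGTG, at 21.4% against 9.09% (95% interval 4.63 to 15.7), a difference of 12.3 points with exact adjusted p = 0.022. That call ended in 4 alternatives, including replicate 2's own list, at 9.67 points with exact adjusted p = 0.053. By chromosome the share with AGACGCAG was 25.9% on I, 17.9% on II, 23.0% on III, 20.7% on IV and 19.6% on V, each above the 9.09% of the X, though each of the 5 intervals overlaps that of the X.

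The third difference was in gene layout. Of the 309 peaks, 70 (22.7%, 95% interval 18.1 to 27.7) faced starts of protein-coding genes on both strands, against 7 of 121 X promoter peaks (5.79%, 95% interval 2.36 to 11.6), with adjusted p = 3.2e-04 by Fisher's exact test, and the call held in the alternatives tried. The same layout around a point at the peaks' median distance applied to 23.3% of all autosomal and 7.91% of all X-linked protein-coding genes, so both shares were near those of the genes themselves. GAGAGA was not shown to differ from the 293 autosomal distal peaks without CACGTG (45.1%, a difference of -7.51 points, adjusted p = 0.17), nor from the X promoter peaks (37.2%, adjusted p = 1), by Fisher's exact test. AGACGCAG was at 19.5% in the distal peaks (adjusted p = 0.71) and at 13.3% in the E-box promoter peaks (adjusted p = 0.23), by the same exact test. CACGCG was at 10.6% of distal, 14% of X promoter and 4.82% of E-box promoter summits. It was at 17.2% of the 116 X distal peaks without CACGTG, near the 17.5% of the 309 peaks. These shares of CACGCG were not tested.

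**Figure D2:**
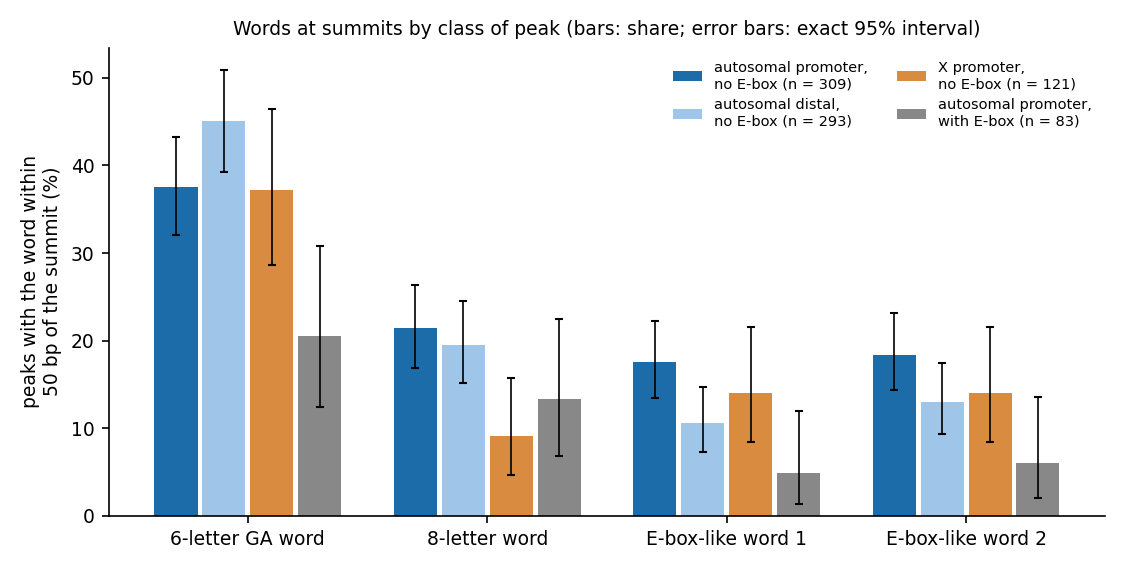
Share of peaks with a word within 50 bp of the summit (y axis, %) for 4 words (x axis; E-box-like word 1 is CACGCG and word 2 is CACGAG) in 4 classes of peak; bars give the share and error bars the exact 95% interval. The autosomal promoter peaks without CACGTG stand at 37.5% for the GA word against 20.5% in promoter peaks with CACGTG, and at 21.4% for AGACGCAG against 9.09% in X promoter peaks.

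The deposited signal of the 309 peaks ran from 48.4 to 293 with a median of 71.2. The medians of the other classes were 70.0 for autosomal distal peaks, 69.9 for X promoter peaks and 82.6 for E-box promoter peaks. A share of 47.6% ranked above the median of the whole list, against 57.8% of the E-box promoter peaks, a difference of 10.3 points that did not pass (adjusted p = 0.23, Fisher's exact test). The strongest peak of the whole list reached 1134. In width, 278 of the 309 were 340 bp.

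In the replicates' own lists of 30000 regions each, the signal ran from 10.8 to 170 in replicate 1, with a median of 38.5 over 307 peaks, and from 8.68 to 140 in replicate 2, with a median of 36.7 over 303 peaks. Replicate 1's 1076 strongest regions held 248 of the summits (80.3%) and replicate 2's held 229 (74.1%), and 182 (58.9%, 95% interval 53.2 to 64.4) were in both. A further 66 were among the strongest of replicate 1 only, 47 of replicate 2 only, and 14 of neither. All of the strongest 77 were in both lists and 1 of the 77 weakest (1.30%) was, which follows largely from ranking both by signal from the same libraries. The E-box promoter peaks were in both at 72.3%, a difference of 13.4 points that did not pass (adjusted p = 0.1, Fisher's exact test) and that came to 2.17 points the other way among peaks above the list's median signal. For the 301 peaks with a region in each replicate's full list, the 2 signals had a Spearman rho of 0.54. It was 0.53 over the 152 stronger of these and -0.54 over the 149 weaker. The division was by pooled signal, to which both replicates contribute, and the weaker peaks span a narrow range of it. Within such a range a high value in 1 replicate goes with a low value in the other. The negative rho thus follows largely from the division and is no measure of disagreement between replicates. The points share the 2 libraries and were chosen on their pooled signal, so no p is given. Reads per library were not analysed, so the depth is unknown.

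**Figure D3:**
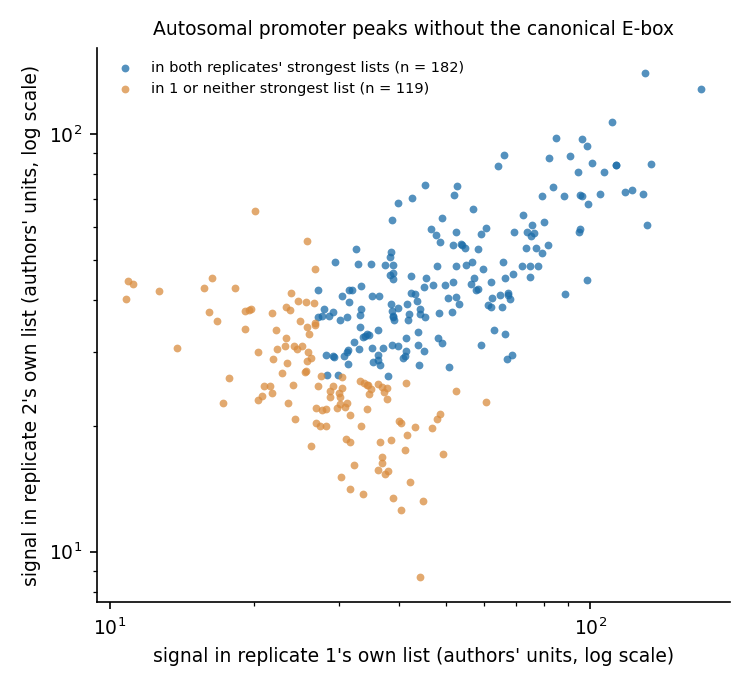
Signal of each peak in the list of replicate 1 (x axis) and of replicate 2 (y axis), in the authors' units on log scales, for the 301 peaks found in both; blue points were among the 1076 strongest regions of both replicates. The strongest peaks lie along the diagonal, and the weaker ones scatter to either side, down to 8.68 in replicate 2.

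Summits lay mainly upstream of the annotated start. For 286 peaks (92.6%, 95% interval 89.0 to 95.2) the summit was upstream of the nearest start, and the median was 254 bp upstream. The rule admits summits up to 1000 bp upstream but only 200 bp downstream, so a majority upstream follows in large part from it. An excess beyond that was not tested. Counts were 82 more than 500 bp upstream, 105 more than 200 and up to 500 bp, 54 more than 100 and up to 200 bp, 45 within the last 100 bp, and 23 at or downstream of the start. GAGAGA and AGACGCAG were met at all these distances, with GAGAGA from 32.9% in the farthest bin to 46.7% in the last 100 bp upstream, and AGACGCAG from 18.3% to 31.1%. By annotation 184 summits (59.5%) were intergenic, 66 in introns, 32 in genes of other biotypes, 18 in 5′ UTRs, 7 in coding exons and 2 in 3′ UTRs. Because trans-spliced genes may be annotated from the splice site, the distance to the true start of transcription is not known from these files.

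**Figure D4:**
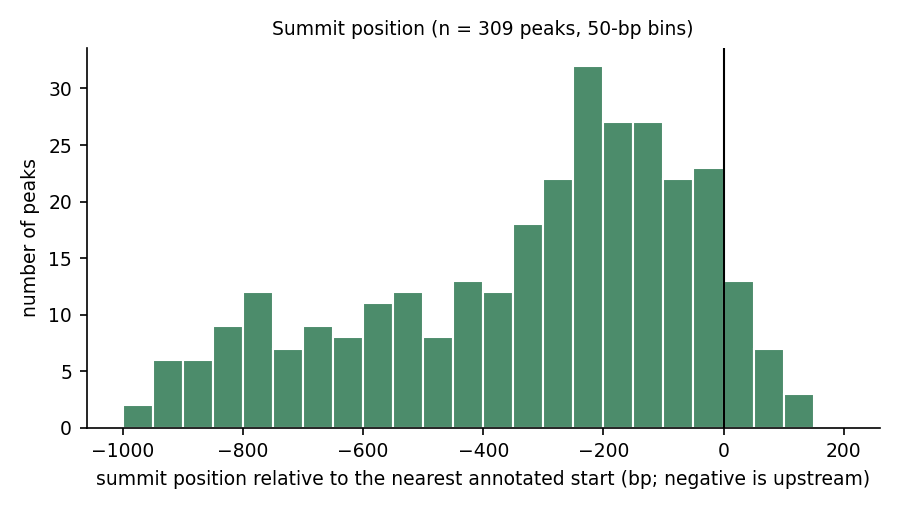
Number of peaks (y axis) by position of the summit relative to the nearest annotated protein-coding start (x axis, bp, 50-bp bins, negative is upstream). Most of the 309 summits lie upstream, with a median of 254 bp upstream and 23 at or past the start. The rule itself allows 1000 bp upstream and only 200 bp downstream.

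Peaks were uneven among autosomes. Chromosome III held 74 (23.9%, 95% interval 19.3 to 29.1) against 15.3% of autosomal protein-coding genes, and chromosome V held 56 (18.1%, 95% interval 14 to 22.9) against 29.0%. Chromosomes I, II and IV, with 54, 67 and 58 peaks, were near their 16.7%, 20% and 19% of the genes. Chromosome V also had the lowest median signal, 63.2, and chromosome I the highest, 82.6. The chromosome shares were not tested.

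Near RNA genes, 76 summits (24.6%, 95% interval 19.9 to 29.8) lay within 200 bp of an annotated non-coding RNA gene. Of the peaks, 63 were near an ncRNA, 12 near a snoRNA, 8 near a snRNA, 2 near a tRNA, 2 near a lincRNA and 1 near a microRNA. For 3 peaks the gene was sls-2.1, sls-2.4 or sls-2.8, which encode the SL2 leader that is trans-spliced onto downstream genes of operons. The share was 26.6% in distal, 27.3% in X promoter and 13.3% in E-box promoter peaks, and none of these differences passed (adjusted p = 0.71, 0.71 and 0.1, Fisher's exact test). A peak beside an RNA gene may belong to that gene rather than to the protein-coding start, and the files do not say which.

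The edges of the rule were unremarkable in signal. The 8 peaks more than 900 bp upstream of the nearest start had a median signal of 76.5, and the 15 peaks just outside, up to 1100 bp, had 86.1. The 14 peaks with CACGTG 51 to 100 bp from the summit had a median of 81.2, and the 8 promoter peaks with CACGTG 41 to 50 bp away ranged from 48.6 to 102. The weakest peak, at rps-24, had a signal of 48.4, and the strongest region of the same kind below the optimal list, at dmd-6, had 48.2; both genes are named for that place in the ranking.

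The 309 peaks lay in the promoter windows of 380 protein-coding genes, 2.20% of the 17242 on the autosomes. Of the peaks, 228 had 1 such gene, 77 had 2 and 4 had 3. A peak shared by several genes gives no way to assign it to 1 of them.

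The strongest peak, at chrV:731387-731629, lay 115 bp downstream of the start of srh-2, a gene of the srh chemoreceptor family, in its 5′ UTR. Its signal was 293 in the optimal list, 170 in replicate 1 and 128 in replicate 2. The next, at chrIII:9765536-9765775, lay 847 bp upstream of cbp-1, which encodes the CBP/p300 histone acetyltransferase, with a signal of 274, and 130 and 140 in the replicates. Both were in the top 50 regions of each replicate's own list, at ranks 25 and 31 for srh-2 and 45 and 23 for cbp-1.

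At ubq-1, the polyubiquitin gene, the summit lay 357 bp upstream with a signal of 223, and 111 and 107 in the replicates. A peak of 216 was shared by tag-340, 624 bp away, and nhl-2, 799 bp away, which encodes a TRIM-NHL cofactor of microRNA silencing. It measured 134 in replicate 1 and 84.6 in replicate 2, and an ncRNA gene lay within 200 bp. At iff-2, which encodes the translation factor eIF5A, the summit was 68 bp upstream with a signal of 199, and 129 and 71.8 in the replicates. The peak that rps-1 shares with ifet-1, a gene for an eIF4E-binding translational repressor, had 194, and 113 and 84.2.

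Genes of kinases, GTPases and regulators were among the rest of the strongest 25. The summit 49 bp upstream of mnk-1, a kinase gene of the MNK type, had a signal of 194, and 122 and 73.6 in the replicates. At unc-108, the worm Rab2 gene, it had 188, and 101 and 85.2. At hlh-11, which encodes a bHLH factor, it had 187, and 131 and 60.5, the widest gap between replicates among the strongest 25. The summit at lin-23, an F-box gene that restrains the cell cycle, had 185, and 107 and 81.0. Those at lin-66, a heterochronic gene, at asd-1, an alternative splicing factor gene, and at zfp-1, the AF10 homologue, had 168, 167 and 156. zfp-1 was the higher in replicate 2, at 88.9 against 66.1, as was tasp-1, a threonine aspartase gene, at 97.6 against 84.7.

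The other members of the strongest 25 were at rpl-3, his-37, H41C03.3, R13A5.7, rsbp-1, C18F10.7, C09E9.1, ddo-2 with F25E5.8, din-1, egg-5, and ubql-1 with pdi-3. Their signals ran from 156 to 194. H41C03.3 and egg-5 had an SL2 leader RNA gene within 200 bp, sls-2.1 and sls-2.4. All 25 were among the strongest regions of both replicates.

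By gene group, ribosomal protein genes and chromatin regulators had such a peak at shares well above the background of 2.20%. The 34 lists were compiled with earlier results of these data known, so they are counts and were not tested. Cytosolic ribosomal protein genes had 14 of 81 (17.3%), with 14 in replicate 1's own list and 15 in replicate 2's. Chromatin regulators had 10 of 48 (20.8%), with 8 and 7. Chaperones and chaperonins had 6 of 60 (10%), respiratory chain and ATP synthase genes 5 of 62 (8.06%), and translation factors 3 of 36 (8.33%). Small lists gave high shares on few genes: 2 of 6 in the bHLH-Zip network, 3 of 13 heterochronic genes, 4 of 27 bHLH factors and 3 of 27 autophagy and lysosome genes. At the other end were 2 of 1331 chemoreceptors (0.150%), 1 of 237 C-type lectins (0.422%), 2 of 358 F-box and BTB genes (0.559%), 1 of 142 cuticle collagens (0.704%) and 0 of 108 neuropeptide and insulin-like genes. In all, 23 of the 34 lists were above the background. Over all autosomal genes, 373 had such a peak in replicate 1's own list and 393 in replicate 2's.

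**Figure D5:**
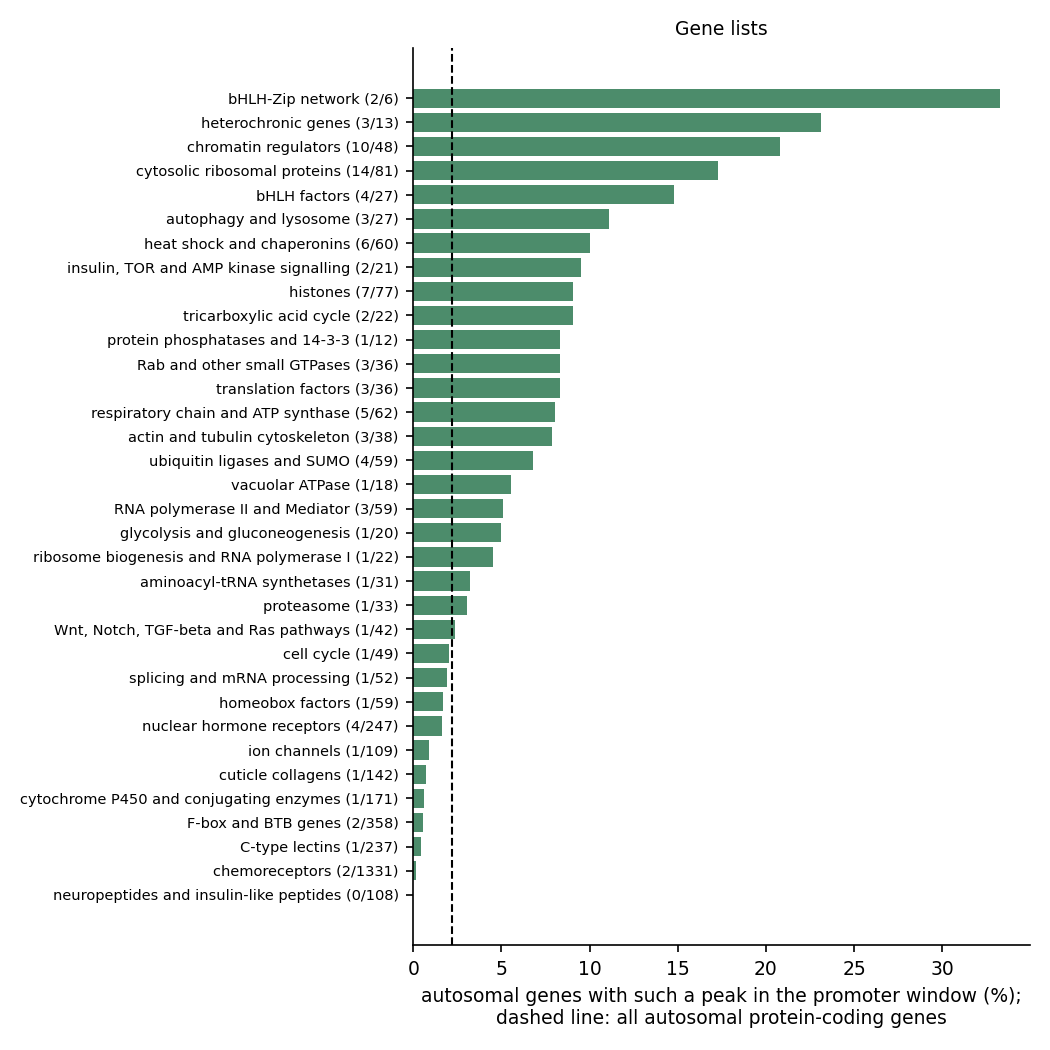
Share of the autosomal genes of each list that have an autosomal promoter peak without CACGTG in their promoter window (x axis, %); the number of genes with a peak over the number in the list follows each name, and the dashed line marks the 2.20% of all autosomal protein-coding genes. Ribosomal protein genes stand at 17.3% and chemoreceptors at 0.150%.

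Most of the ribosomal protein peaks lacked both GAGAGA and AGACGCAG. The ribosomal protein start lay 33 to 703 bp from the summit, with a median of 278 bp, and 11 of the 14 were 150 to 450 bp downstream of it. Over all 309 peaks the median distance to the nearest start was similar, at 254 bp, and their share in that band was not counted. GAGAGA was at 1 of the 14 summits, that of rps-1, AGACGCAG at 0, and CACGCG at 5. At rpl-3 the signal was 194, with 98.3 in replicate 1 and 93.6 in replicate 2. The rps-12 peak had 124, with 69.3 and 58.2, and the rps-19 peak had 84.8, with 59.5 in replicate 1 and no region in replicate 2's list. At the lower end rps-24, chosen after its value was seen, had 33.4 in replicate 2 and no region in the replicate 1 list. In all, 9 of the 14 were among the strongest regions of both. Most of the 14 also lay in the promoter window of another protein-coding gene. The start of that gene was the nearer at rps-12 and rps-19 but not at rps-1. RNA genes lay within 200 bp of 3 of the 14.

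Peaks at other growth and metabolic genes covered much the same range of signal. Among translation factors, eif-2Bgamma had a signal of 110, with 56.8 and 49.5 in the replicates, and eif-3.C had 52.2, with 26.3 and 17.9. The eif-2Bgamma summit lay 928 bp upstream of the start, with RNA genes within 200 bp of it. Among chaperones hsp-60, the mitochondrial chaperonin gene, had 80.6, with 25.8 in replicate 1 and 55.4 in replicate 2, whereas hsp-90 had 51.8, with 28.7 and 23.4. The splicing list held 1 peak, at snr-4, of 151, with 95 and 58.4, and RNA genes lay within 200 bp of it. In the respiratory chain nduf-2.2, of complex I, had 145, with 98.3 and 44.6, and cox-5A, of cytochrome oxidase, had 135, with 75.8 and 60.7. The hsp-60 and nduf-2.2 peaks each lay nearer to the start of another protein-coding gene, and nduf-2.2's also lay within 200 bp of an RNA gene. The citrate synthase gene cts-1 had 66.7 in the optimal list but 10.8 in replicate 1, at rank 9613, and 40.3 in replicate 2. The lactate dehydrogenase gene ldh-1 was the reverse, with 44.3 in replicate 1 and 8.68 in replicate 2, at rank 27813. Both thus rest on 1 replicate.

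Chromatin and transcription genes followed cbp-1 and zfp-1. chd-7, a chromatin remodeller gene, had a signal of 107, with 46.7 and 59.2 in the replicates, and lin-9, of the DREAM complex, had 78.7, with 36.3 and 40.9. Among general transcription genes taf-10 had 122, with 75.1 and 45.4, mdt-26, of Mediator, 105, with 65.5 and 38.5, and cdk-7 87.4, with 38.3 and 50.8. Histone genes counted 7 of 77 (9.09%) from 5 separate peaks, of which his-37, an H4 gene, had 191, with 96.3 and 97.2. The replicate 1 list gave 7 histone genes with such a peak and the replicate 2 list gave 1, although all 5 peaks had a region in replicate 2's full list, 3 of them at ranks 1189 to 1361, just past the 1076 counted.

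Among bHLH genes, hlh-30, the TFEB homologue that controls autophagy and lysosome genes, had a signal of 104, with 62.1 and 38.6 in the replicates. hif-1, the hypoxia-inducible factor gene, had 88.5, with 50.7 and 40.4, and aha-1, which encodes its partner, had 83.6, with 48.4 and 37.2. The aha-1 summit, 339 bp upstream of that gene, lay 15 bp from the start of another protein-coding gene. All 4 bHLH genes with a peak, hlh-11 included, had GAGAGA at the summit of their strongest peak. So did all 3 autophagy and lysosome genes, of which hlh-30 is in both lists. The GAGAGA share over all 309 peaks was 37.5%, and a weaker peak of hlh-11 lacked the word. The autophagy genes lgg-2 and lgg-1 had 121, with 88.5 and 41.4, and 78.1, with 29.4 and 49.3.

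Nuclear hormone receptors had 4 of 247 (1.62%), near the background, with 4 in replicate 1's own list and 6 in replicate 2's. The strongest was at nhr-49, a regulator of fat metabolism, at 95.8, with 58 and 42.3 in the replicates. daf-16, the FOXO gene of insulin signalling, had 95.3, with 63.2 and 34, and RNA genes lay within 200 bp of that summit. The heterochronic gene lin-28 had 56.1, with 42.2 and 14.7, much the lower in replicate 2. Of the ubiquitin genes other than ubq-1, ubc-25 had 144, with 80.1 and 61.5, and ubc-3 117, with 65.7 and 49.4.

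A total of 12 genes had 2 such peaks and din-1 had 3. The din-1 gene encodes a corepressor of the nuclear receptor DAF-12, and its peaks had signals of 158, 153 and 50, at different annotated starts. The hlh-11 peaks had 187 and 62.3, and the weaker had neither word and no region in replicate 1's list. Among the others, chosen after their values were seen, the lit-1 peaks of 94.6 and 65.2 held both words, and lit-1 encodes a Nemo-like kinase of Wnt signalling. Another optimal summit lay within 1000 bp of 19 peaks (6.15%), and for 3 of the 309 a summit with CACGTG was that near.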

How the data were processed

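The deposited ce11 peak lists were used, and the ce10 lists were not used here. Per the file headers and labels, the authors gave 30000 regions per replicate and for the pooled replicates, and an optimal list after a threshold on the irreproducible discovery rate. The deposited signal has no stated scale and served to rank and describe peaks. The deposited −log10 q-value ranks poorly, since 643 of 1076 peaks share its maximum of 3.11. No source used here names the aligner, the caller or that threshold.

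Gene models were Ensembl release 115 (WBcel235, the same assembly as ce11), and coordinates count from 1. RNA genes were ncRNA, snoRNA, snRNA, tRNA, microRNA, lincRNA, antisense and rRNA genes, without piRNAs and pseudogenes, a choice made when the annotation was read. Counting ran in Python 3.11.15 with scipy 1.17.1, and the word scan was tested on simulated data. There, summits and flanks were drawn from the same base composition, so that test does not cover the shift in composition of the real summits. Intervals are exact (Clopper-Pearson) 95% binomial intervals. The upper limit beside a count of 0 is 3 counts. A threshold of 0.05 was applied to Benjamini-Hochberg adjusted p-values within each family of tests. Tests run over peaks of 1 pooled list, so they describe this list and not the spread between animals; the word counts against the left flank, the strand shares and the class differences, other than presence in both replicates, were repeated on either replicate's 1076 strongest regions.

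Members, words and lists were chosen with earlier results of these data known. Named genes are those at the 25 strongest peaks, up to 4 per list with the strongest peak, and mdl-1 and klu-1. Other genes (rps-24, dmd-6, lit-1, rpl-12 and lin-54) were chosen after their values were seen. A further 11 list entries had no match in the gene models and were dropped.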

Additional observations from a re-analysis of the deposited data

How the results depend on the processing

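No paired analysis was possible because both replicates belong to 1 group. In all, 25 results were recomputed under up to 9 settings, and 126 of 152 alternatives were classed as the same. For a share or difference this means the same direction and call. For a plain count it allows a moderate change, as from 309 to 227 peaks with the narrow promoter window. Of the 17 class differences only 3 had passed, so for the rest it means that they still did not pass. The excess of GAGAGA and AGACGCAG over the left flank and the layout difference from X promoters held under each one run. Above the list's median signal there were 147 peaks, 103 higher and 93 lower hexamers. Leaving out either replicate gave 144 to 197 higher and 108 to 161 lower hexamers, and without peaks near RNA genes 144 were higher. E-box forms other than CACGTG that passed numbered 1 with CACGTG barred within 100 bp and 1 against the right flank. The GAGAGA strand share was 38.1% to 40.2% without either replicate. By Fisher's exact test, the GAGAGA difference from E-box promoters missed the threshold with a 500 bp by 100 bp promoter window (17.9 points, adjusted p = 0.058), with CACGTG barred within 100 bp (12.2, 0.1), above the median signal (19.9, 0.14), without replicate 2 (14.9, 0.07; without replicate 1 16.2) and with words within 100 bp (11.3, 0.2). The AGACGCAG difference from X promoters missed it with CACGTG barred within 100 bp (11.3, 0.051), above the median signal (10.5, 0.31), without replicate 1 (9.67, 0.053; without replicate 2 12) and with words within 100 bp (11.5, 0.1). Sign changes, among differences that had not passed, were -2.46 for GAGAGA against X promoters (narrow window), -5.75 and -0.119 for AGACGCAG against distal peaks (above the median signal, words within 100 bp), -1.26 and -1.1 for the share above the median signal against X promoters (without replicate 1, against 2.71 without replicate 2, and without RNA genes), 0.643 and 2.17 for presence in both replicates against distal and E-box promoter peaks (above the median signal), and 1.11 for RNA genes against X promoters (above the median signal). The causes were not tested.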

Other observations

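The words were unevenly spread over gene groups. The grouping that follows was made after the counts per list had been seen, so it is a description with no test. Each gene entered with its strongest peak only, so weaker peaks of hlh-11, hlh-30 and lgg-1 were left out. The weaker hlh-11 peak held neither word, and those of hlh-30 and lgg-1 held both. At 34 peaks of 10 growth and metabolism lists (ribosomal proteins, translation, tRNA synthetases, ribosome biogenesis, proteasome, chaperones, splicing, citric acid cycle, respiratory chain and glycolysis), GAGAGA was at 2 summits (5.88%, 95% interval 0.720 to 19.7) and AGACGCAG at 1 (2.94%), while CACGCG or CACGAG was at 14 (41.2%). At 30 peaks of 10 lists made up mostly of regulators (chromatin, bHLH, nuclear hormone receptor, heterochronic, autophagy, insulin and TOR, Mediator, signalling and homeobox genes), GAGAGA was at 17 summits (56.7%, 95% interval 37.4 to 74.5), AGACGCAG at 7 (23.3%), and CACGCG or CACGAG at 4 (13.3%). The remaining lists were in neither group. Among them, of the genes with a peak, GAGAGA was at 3 of 3 actin and tubulin genes and 4 of 7 histone genes. Those 4 histone genes share their peaks in pairs, and the 7 lie at 5 separate peaks. GAGAGA was at 1 of 4 ubiquitin genes and 0 of 3 small GTPase genes. The contrast thus depends on which lists were grouped. Median GC content at the summits of the first and second group was 52.0% and 49.0%, and median signal 68.6 and 88.0. The peak shared by rpl-12 and lin-54, named after its values were seen, is in both groups.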
